A study of Arabidopsis thaliana with 12 samples.

Results

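The base of the inflorescence stem was compared with the first internode in wox4-1, an Arabidopsis thaliana mutant of the homeobox gene WOX4. The comparison used 6 of the 12 arrays of the series: 3 arrays of wox4-1 stem base and 3 arrays of wox4-1 first internode, chosen by their titles. The other 6 arrays, 3 of stem base and 3 of first internode from wild-type Columbia, entered the same model, so that they contributed to every SE and call, and were used to test where wox4-1 differed. All plants had 3 weeks of short days (8 h light) before long days (16 h light) and received no other treatment. Plants were 49 to 58 days old, their stems stood 15 to 20 cm tall, and the first internode measured 3.5 cm or more. Each array held RNA pooled from 13 to 17 stem fragments of 0.5 cm. Base fragments came from the bottom of the stem, and internode fragments began 1.5 cm and ended 2.0 cm over the topmost rosette leaf. The labels call the pools biological replicates. Every result on wox4-1 comes from this 1 mutant allele.

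WOX4 encodes a transcription factor of the WUSCHEL-related homeobox family that promotes the cambium, the ring of dividing cells that forms xylem inwards and phloem outwards. In Arabidopsis stems a closed ring of cambium forms at the base before it does higher up, so the base is the more mature position and the first internode the younger one. The peptide made by CLE41 and CLE44 acts through the receptor PXY to raise WOX4 activity. No probe set carried the name WOX4 or PXY in the annotation used here, so the mutated gene gives no check of the genotype labels. Of the cell type markers looked for, MOL1 (cambium), TRY (trichome), FMA (guard cell), RCA and SBPASE (green tissue) had a probe set with that name. The other markers looked for, of phloem, xylem, fibres, epidermis, suberised tissue and flowers, had no probe set with that name, so those tissues could not be checked by them. The phloem gene OPS was higher at the base by 0.26 (adjusted p 0.118) and the epidermal regulator SHN3 lower by 0.23 (adjusted p 0.0872), and neither was called with all arrays. Both were called without base replicate 1, at 0.36 for OPS and -0.30 for SHN3. OPS was also called without first internode replicate 2 (0.37), and without both arrays it stood at 0.47 and SHN3 at -0.33, both called. In whole stem fragments, fewer cells of a type and less RNA per cell cannot be told apart.

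Values are log2 expression levels per probe set, in which a difference of 1 is a 2-fold difference. The 64 control probe sets were set aside, which left 22746. The 6 wox4-1 arrays had medians between 5.56 and 5.71, and arrays of 1 position correlated with r of 0.992 to 0.997. The first principal component of the 6 arrays held 69.2% of their variance and separated the base arrays (-38.2, -23.3 and -25.7) from the internode arrays (27.2, 31.3 and 28.7). Base replicate 1 stood apart on the second component (13.8% of variance), at 21.8 against -16.9 and -11.2 for the other base arrays. It read more than 1 log2 unit under both other base arrays at 37 probe sets, 9 of them plastid-encoded genes. First internode replicate 2 had an actin control whose 3′ probe set exceeded the 5′ probe set by 2.26, against 1.22 to 1.51 on the other 11 arrays. Wild-type arrays, which enter every SE, also stood apart. Wild-type base replicate 2 read more than 1 log2 unit over both other arrays of its group at 98 probe sets. Wild-type first internode replicate 2 did so at 102. Group counts that moved by more than 1.5 times without 1 wox4-1 array are given with and without it.

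The base and the first internode of wox4-1 differed at 5564 of 22746 probe sets (24.5%), tested with limma at an adjusted p under 0.05. A fit of the 6 wox4-1 arrays alone called 4275. Of the 5564 calls, 2602 were higher at the base (11.4% of all) and 2962 lower (13.0%). The 3 base arrays and the 3 internode arrays did not overlap at 5395 of the called probe sets and at 8787 of all probe sets (38.6%). Most differences were small: 1973 of the rises and 1695 of the falls were under 1.5-fold. Changes of 2-fold or more numbered 213 rises and 355 falls, and 42 rises and 36 falls reached 4-fold. Without base replicate 1 4607 probe sets were called, without first internode replicate 2 4163, and without both arrays 3850. When each array was centred on its own median, which raised every base minus internode difference by about 0.09, 67.5% of 7022 calls were higher at the base, against 46.8% as deposited. The balance between rises and falls therefore depended on the scaling, and 4882 calls were shared by both fits, all with the same sign.

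The share of called probe sets depended on their signal. It was 6.46% among the 7214 probe sets with a mean between 2 and 4, and 29.7% to 34.8% in each of the 4 brighter bands. In that dimmest band 348 were higher at the base and 118 lower, with a median difference of 0.07, against a median of 0.01 for the same probe sets in wild type. Between 6 and 8 the balance was the other way, with 843 higher and 1342 lower. A mean under 4 is treated here as a floor, because the bacterial tryptophan control probe sets read up to 3.31 and 31.8% of group means lay under it. A change with 1 mean under the floor is given as a lower bound, and no fold is given where both means lay under it.

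**Figure D1:**
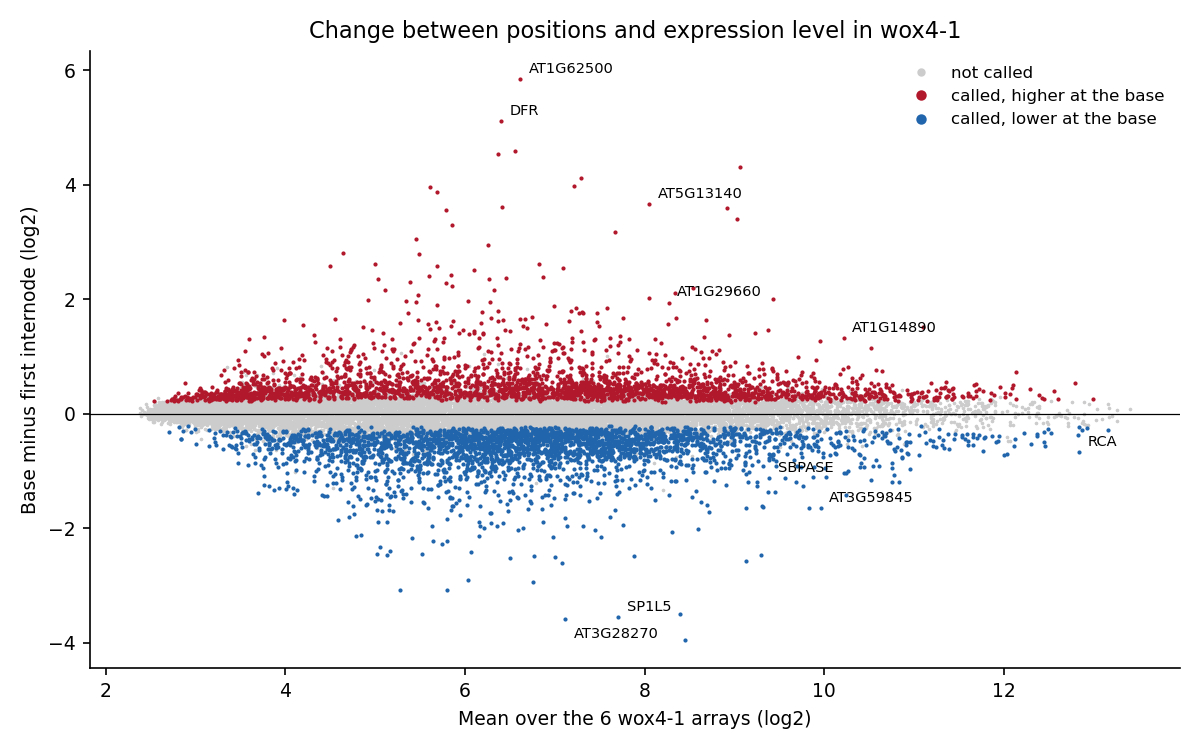
Base minus first internode difference in wox4-1 (log2, y axis) against the mean over the 6 wox4-1 arrays (log2, x axis), 1 point per probe set. Red points are the 2602 called higher at the base and blue points the 2962 called lower, and AT1G62500, the largest rise, lies at a mean between 6 and 7.

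The largest rises at the base included lipid transfer, pectin lyase-like and anthocyanin genes. AT1G62500, of the lipid transfer protein family, read 9.61, 9.34 and 9.68 at the base and 3.50, 3.78 and 3.79 in the internode. The internode arrays were at the floor, so the rise was at least 46.7-fold (fitted log2 difference 5.85, SE 0.11, adjusted p 2.03e-12). AT1G60590 and AT1G10640 belong to the pectin lyase-like family, which includes enzymes that degrade the pectin of cell walls. AT1G60590 read 7.44, 7.72 and 7.61 at the base and 3.55, 3.77 and 3.58 in the internode, at least 12.02-fold higher (log2 SE 0.12, adjusted p 3.46e-10). AT1G10640 read 7.58, 7.83 and 7.46 at the base and 3.75, 3.89 and 3.61 in the internode, at least 12.3-fold higher (SE 0.15, adjusted p 2.86e-09). In each of these genes the lowest base array exceeded the highest internode array by more than 3 log2 units.

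AT1G09750, which encodes an aspartyl protease, read 8.38, 8.76 and 8.80 at the base and 3.98, 3.99 and 4.33 in the internode (23.4-fold, log2 SE 0.17, adjusted p 2.86e-09). AT5G13140, of the Ole e 1 and extensin family of extracellular proteins, read 10.09, 9.83 and 9.72 at the base and 6.20, 6.47 and 6.004 in the internode. All its arrays lay well over the floor, and the rise was 12.6-fold (SE 0.15, adjusted p 4.61e-09). AT4G10270, of a wound-responsive family, rose at least 7.93-fold, and AT5G45950, a GDSL lipase, rose 6.91-fold. AT5G48490, related to AT1G62500 by its lipid transfer domain, was at least 4.63-fold higher, and ARPN, the copper protein plantacyanin, rose 4.67-fold. The named list of the 15 largest rises is completed by AT1G19530 (6.13-fold), AT2G28780 (at least 3.46-fold) and 4 anthocyanin genes described further on.

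**Figure D2:**
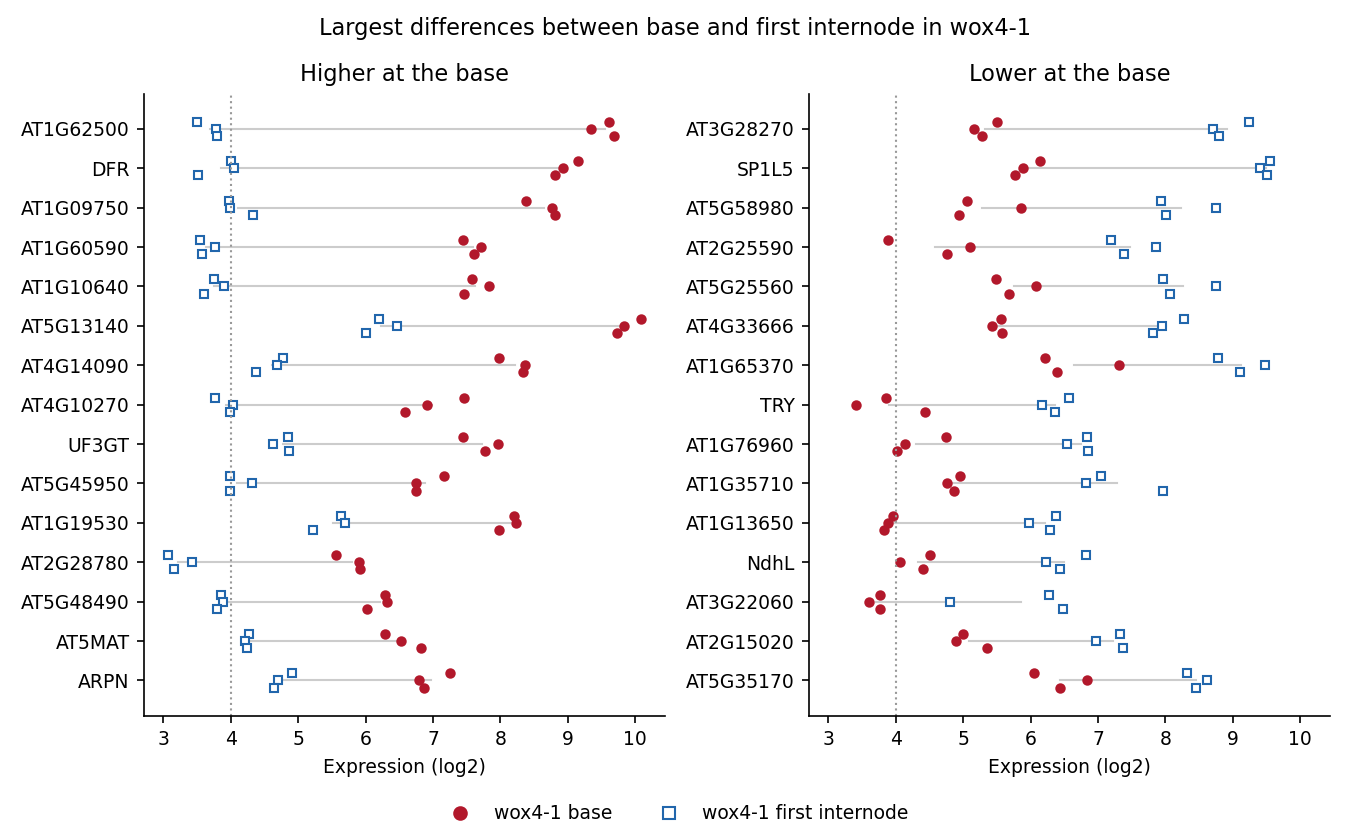
Expression (log2, x axis) of the 15 named genes with the largest rise (left) and the 15 with the largest fall (right) at the wox4-1 base, with red circles for the 3 base arrays and open blue squares for the 3 first internode arrays, replicates 1 to 3 from top to bottom. The grey line joins the means and the dotted line marks the floor at 4. Non-overlap of base and internode arrays was a condition for choosing the 30 genes.

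The largest falls at the base included a microtubule gene, a trichome regulator and a ceramidase. SP1L5, related to the microtubule protein SPIRAL1, read 6.14, 5.88 and 5.77 at the base and 9.55, 9.40 and 9.51 in the internode, 11.8-fold lower (log2 SE 0.13, adjusted p 1.51e-09). AT3G28270 read 5.51, 5.17 and 5.28 at the base and 9.24, 8.71 and 8.80 in the internode, a 12.1-fold fall with a wider SE of 0.49 (adjusted p 0.000146). That SE comes from a spread shared over the 4 groups and is large because the wild-type base arrays of this gene ranged between 4.89 and 7.61. TRY, a MYB-type repressor of trichome fate, read 3.85, 3.41 and 4.44 at the base and 6.57, 6.17 and 6.36 in the internode, a fall of at least 5.15-fold (SE 0.20, adjusted p 2.18e-06). Of the other trichome and stomatal genes measured, none was called: BLT read lower by 0.23 (adjusted p 0.167), and FMA (adjusted p 0.0871) had both means under the floor.

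AT5G58980, which encodes a neutral ceramidase, fell 7.72-fold, and AT2G25590, a Tudor-like protein, 7.46-fold. In both, base replicate 2 and internode replicate 2 were the highest array of their position. AT5G25560, a zinc finger protein, fell 5.68-fold, AT1G65370, of the TRAF-like family, 5.58-fold, and AT1G35710, a leucine-rich repeat receptor kinase, 5.36-fold. AT3G22060, a secreted protein of the cysteine-rich repeat family, had internode values of 6.28, 4.81 and 6.48 against base values between 3.61 and 3.77, a fall of at least 3.62-fold. Its internode replicate 2 lay more than 1 log2 unit under the other internode arrays. AT4G33666, AT1G76960, AT1G13650, NdhL, AT2G15020 and AT5G35170, an adenylate kinase family member, fell by between 4.07-fold and 5.62-fold, with AT1G13650 a bound of at least 4.63-fold. All 30 genes kept their call in each of the 15 alternative fits of this comparison.

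Among the 6795 probe sets with both means at 7 or higher, 1085 rose and 1048 fell at the base, and 38 rises and 67 falls reached 2-fold. The rises were led by AT2G19970, related to pathogenesis-related protein 1, which read 9.23, 8.98 and 8.98 at the base and 7.26, 6.76 and 7.07 in the internode (4.09-fold, adjusted p 8.13e-06). AT1G29660, a GDSL lipase, read 9.29, 9.24 and 9.20 at the base and 7.38, 7.22 and 7.30 in the internode (3.84-fold, log2 SE 0.11, adjusted p 8.68e-08). Its arrays spread by less than 0.2 within each position. Next came AT4G39320 (3.13-fold), DRT100, a leucine-rich repeat protein (2.76-fold), the wall glucanase gene GH9B13 (2.61-fold) and TUB1, a beta-tubulin (2.58-fold). AT1G14890, of the pectin methylesterase inhibitor family, rose 2.49-fold, AT2G43800, a formin that nucleates actin, 2.49-fold, the peroxidase gene AT5G58390 2.37-fold, and scpl35, a serine carboxypeptidase-like gene, 2.18-fold.

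On the falling side AT3G59845, of the zinc-binding dehydrogenase family, read 9.16, 9.09 and 9.16 at the base and 10.91, 10.67 and 10.77 in the internode (3.13-fold lower, log2 SE 0.09, adjusted p 8.64e-08). BGLU45, a glucosidase that releases monolignols for lignin, read 8.35, 8.73 and 8.46 at the base and 10.08, 10.17 and 10.10 in the internode (3.04-fold lower, SE 0.11, adjusted p 6.4e-07). LCR68, a small cysteine-rich protein of the defensin type, fell 3.01-fold. PIFI, a chloroplast protein of electron flow around photosystem I, fell 2.68-fold and PPDK, pyruvate orthophosphate dikinase, 2.35-fold. The others were AT2G30600, a BTB/POZ domain protein (2.92-fold), AT2G23360, a filament-like protein (2.75-fold), AT1G55960, with a lipid-binding START domain (2.55-fold), AT1G75460, a Lon protease (2.45-fold), and AT5G40450 (2.28-fold).

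The 5 called genes of each direction with the brightest signal changed less. AT1G62480 rose 1.66-fold, AT3G45160 1.35-fold, BCAT4, which elongates methionine for glucosinolates, 1.32-fold, and UBC28, a ubiquitin-conjugating enzyme, by a log2 difference of 0.26. The ribosomal protein gene AT5G20290 read 12.52, 12.68 and 12.54 at the base and 12.26, 12.32 and 12.39 in the internode (log2 difference 0.26, adjusted p 0.0369). Its call was lost in 9 of 15 alternative fits, among them those without base replicate 2 or 3 or any 1 internode array, and that of UBC28 without base replicate 1 or first internode replicate 1 or 3. RCA, rubisco activase, fell 1.60-fold, PSAE-1 of photosystem I 1.48-fold, the plastid gene atpE of ATP synthase 1.41-fold, ndhI 1.30-fold and LHCB4.1, a light-harvesting antenna protein, 1.28-fold. The 5 bright falls were all genes of photosynthesis, and that of atpE was not called without base replicate 1 or first internode replicate 2.

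Many of the strongest changes lay at unnamed probe sets, which are common on the array. Of the 78 called probe sets that changed at least 4-fold, 35 carry 1 gene name, 2 several and 41 none. Beside this, 8730 of all 22746 probe sets and 2406 of the 5564 calls have no name. The probe sets 250083_at (log2 4.60) and 248684_at (4.31) had the largest rises without a name, and 259161_at (-3.95) and 246596_at (-3.51) the largest falls. The gene groups described next cover named genes only, with 1 probe set for each of 13356 genes, of which 11.4% rose and 11.2% fell at the base (median difference 0.05). Group counts near these shares do not set a group apart from genes at large. In all, 65 groups had a measured member. The groups and their members were chosen with earlier results of these data known. Their counts are therefore descriptions and no independent evidence that a group stands out.

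Late genes of the anthocyanin pathway rose at the base. Anthocyanins are the red pigments made by reducing dihydroflavonols and then decorating the product with sugars and acyl groups. DFR, the reductase, read 9.15, 8.93 and 8.80 at the base and 3.997, 4.04 and 3.51 in the internode, at least 31.2-fold higher (fitted log2 difference 5.11, SE 0.17, adjusted p 1.09e-09). AT4G14090, the 5-O-glucosyltransferase locus, read 7.98, 8.36 and 8.33 at the base and 4.78, 4.68 and 4.37 in the internode (12.2-fold, SE 0.18, adjusted p 2.94e-08). UF3GT, which adds xylose, read 7.45, 7.96 and 7.78 at the base and 4.84, 4.63 and 4.86 in the internode (7.72-fold). AT5MAT, which adds malonate, read 6.28, 6.53 and 6.82 at the base and 4.28, 4.22 and 4.24 in the internode (4.92-fold, SE 0.15, adjusted p 2.5e-07). The 4 genes shared the pattern of a base well clear of a low internode.

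The flavonol and anthocyanidin glucosyltransferase UGT78D2 rose by 0.59 (SE 0.10, adjusted p 0.000844) and UGT78D1 by 0.37 (SE 0.09, adjusted p 0.0101). BAN (0.27, adjusted p 0.104) was called without base replicate 2 but not with all arrays. UGT78D3 (adjusted p 0.242) had both means under the floor and was not called. Altogether 6 of the 8 measured flavonoid genes rose and none fell, with a median of 1.45, and the same counts held without base replicate 1. BGLU15, a glucosidase known to act on flavonol glycosides, read 8.31, 8.01 and 8.13 at the base and 6.44, 6.41 and 6.31 in the internode (3.39-fold, adjusted p 8.08e-08).

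**Figure D3:**
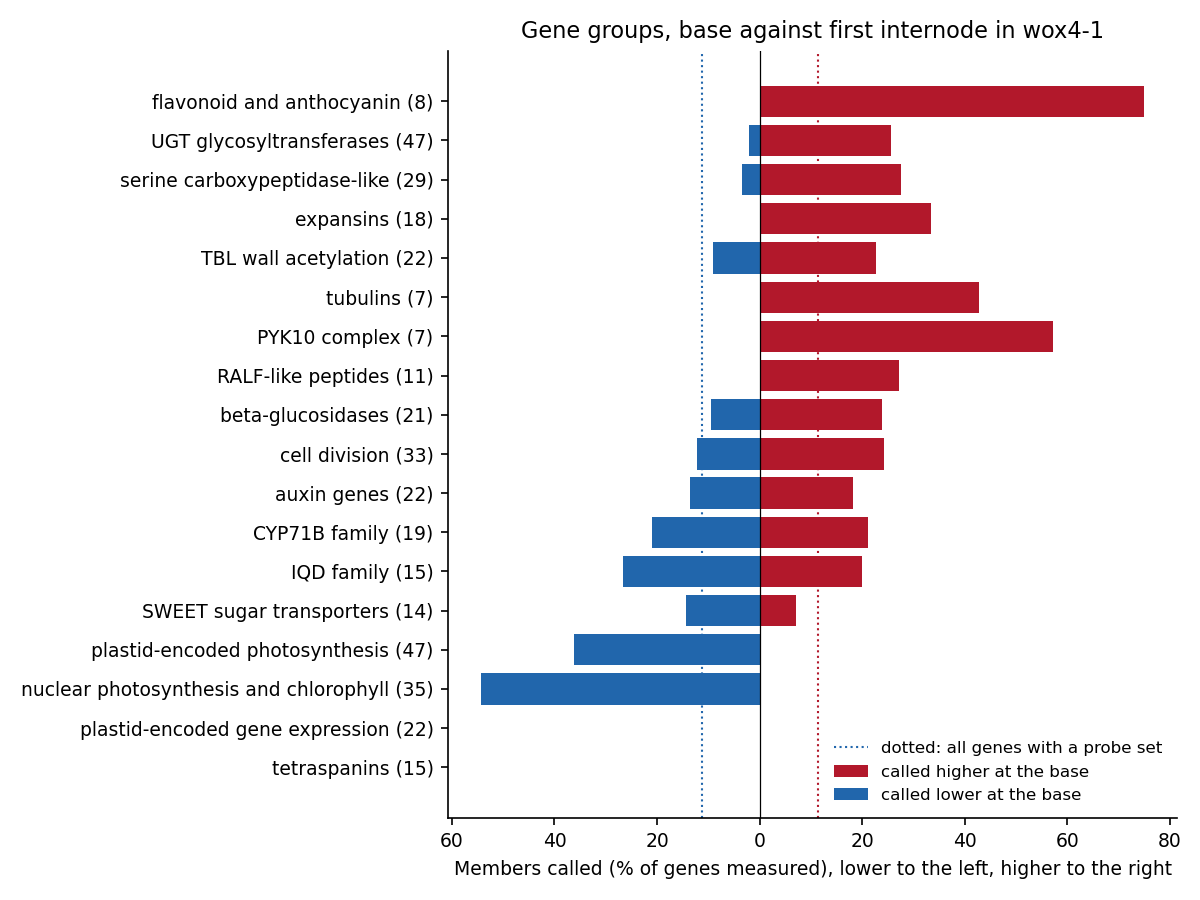
Percentage of the measured genes of 18 groups that were called higher (red, to the right) or lower (blue, to the left) at the wox4-1 base than in the first internode, with the number of genes measured in parentheses. Dotted lines mark 11.4% higher and 11.2% lower over all 13356 genes. The groups were chosen with earlier results of these data known. Flavonoid genes have calls to the right only and photosynthesis genes to the left only.

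Photosynthesis genes were lower at the base. Of 35 nuclear genes of photosynthesis and chlorophyll synthesis, 19 fell and none rose (median -0.35), and 19 fell without base replicate 1 as well. Without first internode replicate 1, 17 fell and 1 rose. The chloroplast NDH complex, which returns electrons from photosystem I to the plastoquinone pool, held the largest falls. NdhL read 4.51, 4.06 and 4.41 at the base and 6.82, 6.22 and 6.44 in the internode (4.49-fold lower, log2 SE 0.18, adjusted p 2.6e-06). NdhN read 5.73, 5.79 and 6.002 at the base and 7.26, 7.12 and 7.21 in the internode (2.56-fold lower, SE 0.15, adjusted p 3.29e-05). NdhS, of the same complex, fell by 0.53.

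In carbon fixation SBPASE of the Calvin cycle read 8.73, 8.81 and 8.94 at the base and 10.09, 9.80 and 9.96 in the internode (2.18-fold lower, adjusted p 9.94e-06). PRK, phosphoribulokinase, read 9.84, 9.97 and 10.12 at the base and 11.02, 10.74 and 10.96 in the internode (1.90-fold lower, adjusted p 4.28e-05). The antenna genes LHCB4.1, LHCB4.2 and LHCB4.3 fell by 0.35, 0.55 and 0.65 on the log2 scale. LPA1, an assembly factor of photosystem II, fell by 1.04, TAPX, the thylakoid ascorbate peroxidase, by 0.77, and LIL3:1, which binds chlorophyll precursors, by 0.75. Among enzymes early in chlorophyll synthesis, HEME1 fell by 0.28, a call lost without base replicate 2 or 3 or first internode replicate 1 or 2, while HEMB1, GSA1 and HEME2 lay between -0.10 and 0.00 and were not called.

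Among plastid-encoded photosynthesis genes 17 of 47 fell and none rose (median -0.24), a count that depended on the arrays used. Without base replicate 1, 2 or 3 there were 10, 14 and 23 falls, and without first internode replicate 1, 2 or 3 there were 12, 11 and 12. The fits without base replicate 1 and without first internode replicate 1 also had 1 rise each. On the array of base replicate 1 the median of this group was 8.09, against 8.31 and 8.40 on the other base arrays and between 8.37 and 8.60 on the internode arrays. psbK, a small subunit of photosystem II, read 10.49, 10.48 and 10.46 at the base and 11.12, 11.20 and 11.45 in the internode (1.72-fold lower, adjusted p 0.000187), and kept its call in all alternative fits. psbZ, of the same photosystem, read 9.14, 10.35 and 10.45 at the base and 10.68, 10.97 and 10.86 in the internode (adjusted p 0.021). In psbZ base replicate 1 lay 1.2 log2 units or more under the other base arrays, and the call was lost in 4 of 15 alternative fits, among them those without first internode replicate 2 or 3. The psbZ difference was -0.86 with all arrays and -0.44 without base replicate 1, called in both.

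None of 22 plastid genes of transcription and translation was called by limma, with 1 at an unadjusted p under 0.05 and a median of -0.14 that was 0.08 without base replicate 1. Without base replicate 2 1 of them fell. Their median on base replicate 1 was 8.13, against 9.26 and 9.22 on the other base arrays and 9.09 to 9.19 on the internode arrays. rpoC2, a subunit of the plastid RNA polymerase, read 5.20, 6.73 and 6.51 at the base and 6.31, 6.61 and 6.09 in the internode. The photosystem I gene psaB read 9.60, 10.98 and 11.29 at the base and 10.91, 11.38 and 11.19 in the internode. In both genes base replicate 1 alone lay low, and neither was called. Mitochondrion-encoded genes had medians of 4.78, 5.01 and 4.99 at the base and 4.67, 4.82 and 4.61 in the internode. Compared probe set by probe set, base replicate 1 exceeded the mean of the other base arrays by a median of 0.20 over 23 probe sets, and it was the lowest base array in 30.4% of them. What sets base replicate 1 apart in plastid transcripts was not tested.

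**Figure D4:**
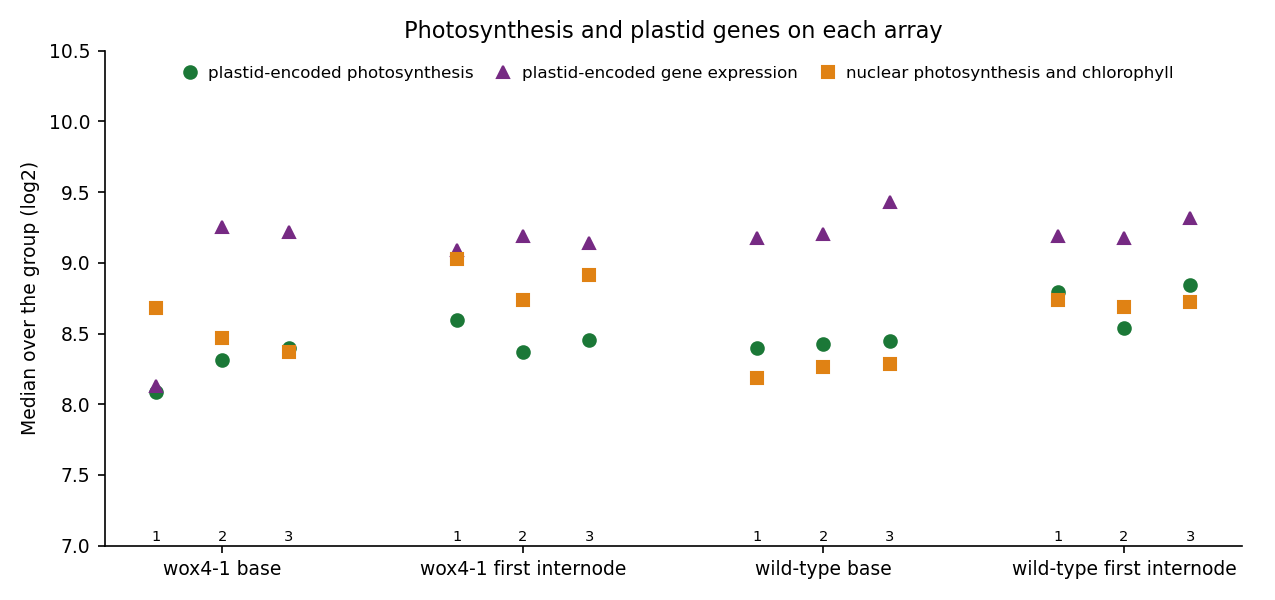
Median expression (log2, y axis) of 47 plastid-encoded photosynthesis genes (green circles), 22 plastid-encoded gene expression genes (purple triangles) and 35 nuclear photosynthesis and chlorophyll genes (orange squares) on each of the 12 arrays, grouped along the x axis with replicate numbers above it. The triangle of wox4-1 base replicate 1, at 8.13, lies under the other 11 triangles, and the nuclear genes do not show that drop.

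Microtubule genes moved in both directions. TUB1 read 8.45, 8.35 and 8.44 at the base and 6.92, 7.08 and 7.14 in the internode (adjusted p 1.48e-07), and TUB5, another beta-tubulin, 8.93, 8.88 and 8.88 at the base and 7.94, 7.88 and 7.96 in the internode (1.96-fold, adjusted p 8.13e-06). TUB7 rose 1.22-fold (adjusted p 0.0322), a call lost without base replicate 3 or first internode replicate 1 or 3, and the other 4 of 7 tubulins were not called. Within the SPIRAL1 family SP1L2 rose 1.53-fold while SP1L5 fell, and the other 3 members were not called. Of 15 IQD genes, whose products bind calmodulin and microtubules, 3 rose and 4 fell. IQD28 read 8.77, 8.83 and 8.75 at the base and 9.45, 9.51 and 9.45 in the internode (1.61-fold lower, adjusted p 7.24e-05), and iqd21 fell 1.59-fold. IQD18 rose by at least 1.36-fold, a call that was lost in 1 alternative fit, and the family had 1 rise and 3 falls without base replicate 1 or first internode replicate 1, and 1 rise and 4 falls without first internode replicate 3.

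Cell division genes moved in both directions. Of 33 genes, 8 rose and 4 fell, with a median of -0.05. Over all measured genes 11.4% rose and 11.2% fell, and the share of falls here was near the latter. The rises numbered 5 without base replicate 1 or first internode replicate 1 or 2, 4 without first internode replicate 3 and 9 without base replicate 3, and without both base replicate 1 and first internode replicate 2 there were 4 rises and 2 falls. AUR2, an Aurora kinase of mitosis, read 5.36, 5.20 and 5.33 at the base and 4.67, 4.51 and 4.32 in the internode (1.73-fold, adjusted p 0.000929). The histone H2B genes HTB1 and HTB2 rose by 0.44 and 0.41 on the log2 scale. HBT, a subunit of the anaphase-promoting complex, fell by 0.52. ATMAP65-6, a microtubule bundling protein, fell by 0.48 and KEU, needed for vesicle fusion at the division plane, by 0.45.

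Named cambium genes differed little between the positions. MOL1, a receptor-like kinase that restrains the cambium, read 7.50, 7.23 and 7.15 at the base and 6.61, 6.97 and 6.78 in the internode (1.42-fold, log2 SE 0.11, adjusted p 0.00507). CLE41 read 9.69, 9.53 and 9.44 at the base and 9.23, 9.33 and 9.15 in the internode (1.24-fold, adjusted p 0.0194), a call lost in 5 of 15 alternative fits, among them that without base replicate 1. AT1G08590, a receptor kinase related to PXY, rose 1.26-fold (adjusted p 0.0441), a call lost in 10. CLE44 (0.17, adjusted p 0.292) was not called. Thus 3 of 5 genes rose and none fell, but 1 rose without base replicate 1, and likewise without first internode replicate 1 or 3.

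Cell wall genes were called in both directions. Of 18 expansins, which loosen walls, 6 rose and none fell (median 0.22), although 2 of the 6 had both means under the floor. Leaving out 1 array gave 4 to 6 rises and up to 2 falls, those without base replicate 2. EXPB3 read 10.86, 11.25 and 10.95 at the base and 10.41, 10.41 and 10.01 in the internode (1.67-fold, adjusted p 0.000946). EXPA16 rose 1.61-fold, a call lost in 1 of 15 alternative fits. Of 22 TBL genes, which acetylate wall polysaccharides, 5 rose and 2 fell, with 2 and 2 without base replicate 3 and 3 and 1 without first internode replicate 3. TBL39 read 7.27, 7.22 and 7.04 at the base and 5.96, 6.24 and 5.86 in the internode (2.23-fold, adjusted p 0.000171), TBL36 rose 1.41-fold and TBL32 fell 1.42-fold. XTH32, a xyloglucan-remodelling enzyme, rose 1.31-fold. Of 15 GH9 glucanases, 3 rose and 1 fell, but without base replicate 2 or 3, and likewise without first internode replicate 1 or 2, 1 rose and none fell, and without first internode replicate 3 2 rose and 2 fell. GH9B13, whose call held in all alternative fits, read 9.32, 9.86 and 9.73 at the base and 8.04, 8.68 and 8.03 in the internode.

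For the secondary wall, the 4 named genes of cellulose and xylan synthesis were not called by limma and none had an unadjusted p under 0.05, although 1 rose without base replicate 2. Of these GUT2, a xylan synthesis gene, read 10.29, 10.18 and 10.32 at the base and 10.48, 10.57 and 10.37 in the internode. Of 8 lignin genes, UGT72E2, which stores monolignols as glucosides, rose 1.46-fold (adjusted p 0.00394) and BGLU45 fell. The UGT72E2 call was lost in 1 of 15 alternative fits. UGT72E2 forms monolignol glucosides, whereas BGLU45 releases monolignols from them. HCT, an enzyme of monolignol synthesis, was lower by 0.27 and not called (adjusted p 0.0718), but was called without first internode replicate 3.

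The glycosyltransferases of the UGT family rose in 12 of 47 genes and fell in 1 (median 0.15), in 13 and 1 without base replicate 1, and in 9 and 2 without first internode replicate 2. UGT71C1, which acts on phenolic compounds, read 6.42, 6.39 and 6.31 at the base and 4.73, 4.62 and 5.04 in the internode (2.97-fold, log2 SE 0.14, adjusted p 5.44e-06). UGT76C2, which inactivates cytokinins, rose 1.73-fold. The 3 neighbouring genes UGT84A1, UGT84A3 and UGT84A4, whose enzymes glucosylate sinapate and related acids, split. UGT84A4 read 5.003, 5.18 and 5.46 at the base and 4.46, 4.50 and 4.40 in the internode (1.70-fold, adjusted p 0.000212). UGT84A3 read 4.48, 3.96 and 4.54 at the base and 5.63, 5.44 and 5.34 in the internode (2.21-fold lower, adjusted p 9.31e-05). UGT84A1 rose (adjusted p 0.026) with both means under the floor, a call lost without base replicate 2 or 3 or first internode replicate 2 or 3.

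The cytochrome P450 family CYP71B likewise had 4 rises and 4 falls among 19 genes, and 2 rises and 4 falls without base replicate 3. CYP71B26 read 8.10, 8.10 and 8.08 at the base and 8.97, 9.07 and 8.92 in the internode (1.85-fold lower, log2 SE 0.10, adjusted p 3.63e-05). CYP71B24 fell 2.42-fold and CYP71B35 1.48-fold, whereas CYP71B22 read 6.19, 6.04 and 6.31 at the base and 5.38, 5.34 and 5.87 in the internode (1.57-fold higher, adjusted p 0.00962). These 4 genes, of which CYP71B22 lost its call in 2 of 15 alternative fits, carry locus numbers between AT3G26200 and AT3G26310 on chromosome 3. Over the genome, 364 of 5814 pairs of adjacent measured genes had both members called, and 203 of these (55.8%) moved in the same direction, against 50.0% over all pairs of called genes.

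Serine carboxypeptidase-like genes rose in 8 of 29 and fell in 1 (median 0.15), in 5 and 1 without first internode replicate 1, and in 4 and 0 without base replicate 1 and likewise without first internode replicate 3. scpl35 read 9.05, 9.26 and 9.07 at the base and 7.98, 8.17 and 7.85 in the internode (adjusted p 2.02e-05), and SCPL27 rose 1.49-fold. Of 7 genes of the PYK10 complex, which gathers around a beta-glucosidase of endoplasmic reticulum bodies, 4 rose and none fell (median 0.36), with 2 rises without base replicate 2 and without first internode replicate 1. PYK10 read 4.39, 4.07 and 4.33 at the base and 3.43, 3.18 and 3.05 in the internode, at least 1.201-fold higher, and JAL34, a jacalin lectin, rose 1.62-fold. Signals of the complex were therefore low in both positions. Of 10 subtilases, a family of proteases, 2 rose and 2 fell, and 1 rose and 2 fell without first internode replicate 2. SBT3.12 read 3.37, 4.43 and 4.46 at the base and 5.59, 6.54 and 5.81 in the internode (3.71-fold lower, adjusted p 0.000386), and SBT1.3 rose at least 1.94-fold.

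Sugar transporters of the SWEET family fell in 2 of 14 genes and rose in 1, SWEET8, which lay under the floor and was not called without base replicate 2 or 3 or first internode replicate 1. Without base replicate 1, and likewise without first internode replicate 3, 2 rose. These counts are near the shares over all measured genes, 11.4% higher and 11.2% lower. SWEET13, a sucrose exporter, read 5.18, 5.34 and 5.74 at the base and 7.37, 7.20 and 6.87 in the internode (3.31-fold lower, log2 SE 0.18, adjusted p 2.14e-05). SWEET11, which loads sucrose towards the phloem, read 4.95, 4.84 and 4.98 at the base and 5.90, 5.82 and 6.43 in the internode (2.19-fold lower, adjusted p 0.00559). The starch branching enzyme gene SBE2.2 fell 1.34-fold. The defensin gene PDF1.2b read 7.68, 8.72 and 7.39 at the base and 5.63, 7.11 and 5.41 in the internode (3.68-fold, adjusted p 0.0232). Replicate 2 was the highest array at both positions, and the call was lost in 5 of 15 alternative fits, among them those without base replicate 2 or first internode replicate 1 or 3. The probe set may also detect close copies of the gene.

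Hormone genes changed singly. The auxin-conjugating enzyme gene WES1 read 6.87, 6.81 and 6.77 at the base and 5.47, 5.46 and 5.56 in the internode (2.50-fold, log2 SE 0.10, adjusted p 1.51e-06), and GH3.17, of the same family, rose at least 1.36-fold. IAGLU, which couples auxin to glucose, read 5.58, 5.27 and 5.86 at the base and 6.34, 6.27 and 6.39 in the internode (1.70-fold lower, adjusted p 0.000565). IAA29, an auxin response repressor, fell 1.53-fold, a call lost without base replicate 3 or first internode replicate 1 or 2. Of 22 auxin genes 4 rose and 3 fell, but 1 fell when any 1 of those 3 arrays was left out. The shares over all measured genes were 11.4% higher and 11.2% lower. GID1A, a gibberellin receptor, read 7.85, 7.66 and 7.40 at the base and 6.72, 6.56 and 6.70 in the internode (1.97-fold, adjusted p 6.08e-05). ARR15, a response regulator that dampens cytokinin signalling, read 9.08, 9.08 and 8.83 at the base and 8.48, 8.27 and 8.30 in the internode (1.56-fold, adjusted p 0.00195). Its call was lost in 1 of 15 alternative fits.

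Among regulators of growth and flowering, PTL, a trihelix factor that limits growth between organs, read 6.65, 6.90 and 6.93 at the base and 5.25, 5.49 and 5.40 in the internode (2.73-fold, adjusted p 1.07e-05). SHI, which restricts internode elongation when overproduced, rose 1.67-fold, a call lost in 1 of 14 alternative fits. The MADS factor AGL24, a promoter of flowering, rose 1.47-fold, whereas AGL16, a repressor of flowering, read 5.99, 6.29 and 5.84 at the base and 6.89, 7.08 and 6.98 in the internode (1.92-fold lower, adjusted p 3.59e-05). Among 17 bZIP factors 2 rose and 3 fell (3 and 2 without base replicate 1), beside 11.4% and 11.2% over all measured genes. The bZIP changes were led by bZIP42 (3.00-fold higher) and HYH, a partner of the light regulator HY5 (1.63-fold lower). Of 11 RALF-like peptide genes, which signal at the cell surface, 3 rose and none fell (1 without both base replicate 1 and first internode replicate 2), with RALFL33 at 1.64-fold. The RALFL33 call was lost in 2 of 15 alternative fits. In autophagy ATG8G, ATG8E and ATG8C rose by 1.31-fold to 1.39-fold, while ATG8B fell 1.46-fold. ATG8E was not called without base replicate 1 or first internode replicate 2, and ATG8B without base replicate 3 or first internode replicate 2. None of 15 tetraspanins was called by limma, with 5 at an unadjusted p under 0.05, but 1 rose without first internode replicate 2 and 4 rose with each array centred. None of 3 reference genes was called, with 0 at that p.

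The wild-type stems, 3 base arrays against 3 first internode arrays that share no array with wox4-1, showed many of the same differences. Both comparisons used the same estimate of spread per probe set, so their calls were not independent. They had 4485 calls (19.7%), with 2183 higher (9.6%) and 2302 lower (10.1%) at the base. Probe sets that rose in both genotypes numbered 1419, which is 54.5% of the wox4-1 rises and 65.0% of the wild-type rises. Those that fell in both numbered 1748, which is 59.0% of the wox4-1 falls and 75.9% of the wild-type falls. Only 5 were called in opposite directions. Of the 2392 called in wox4-1 and not in wild type, 2100 (87.8%) had the same sign in wild type. The share of same signs over all probe sets is not given here. This share and the same-sign count of larger changes therefore have no background beside them.

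The larger the change in wox4-1, the more often it was called in wild type too. Of the rises under 1.5-fold in wox4-1, 45.3% were called higher in wild type, of those between 2-fold and 4-fold 92.4%, and of those of 4-fold or more 95.2%. For falls the shares were 43.1%, 95.3% and 100%. Of the 568 probe sets that changed at least 2-fold in wox4-1, all had the same sign in wild type and 30 were not called there. The median of the falls of 4-fold or more was -2.43 in wox4-1 and -2.19 in wild type, and that of the rises 2.62 in wox4-1 and 2.58 in wild type. The bands were set by the change in wox4-1, so these medians do not compare the genotypes on equal terms.

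**Figure D5:**
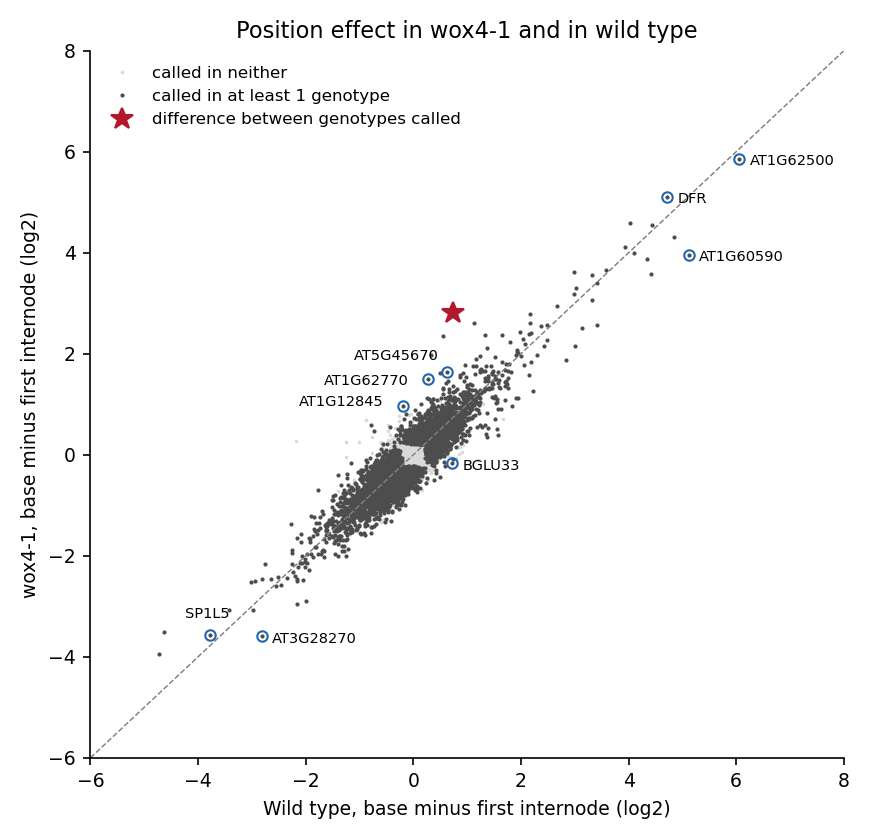
Base minus first internode difference (log2) in wox4-1 (y axis) against wild type (x axis), 1 point per probe set, with dark points called in at least 1 genotype and the dashed line marking equal differences. The red star is 250891_at, at 2.81 in wox4-1 and 0.74 in wild type, and blue circles mark named genes given in the text.

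The difference between the position effects was tested directly as an interaction and was called for 1 of 22746 probe sets (0.0044%). With replicate number as a block within genotype 5 were called, and with each array centred on its median 7. At an unadjusted p under 0.05 there were 1827 (8.03%). The median SE of this difference was 0.14, and the median unadjusted 95% interval reached 0.31 on either side. Smaller differences between the genotypes were not resolved at a typical probe set. After adjustment over all probe sets, larger differences also went uncalled, such as 1.23 at AT1G62770 (limma, adjusted p 0.07). No named gene was called, and none of the 65 groups had a member that was.

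The called probe set, 250891_at, has no gene name here. It read 6.08, 5.97 and 6.10 at the wox4-1 base and 3.39, 3.08 and 3.24 in the wox4-1 internode, against 3.91, 4.55 and 3.97 at the wild-type base and 3.29, 3.68 and 3.23 in the wild-type internode. Only the wox4-1 base arrays stood well over the floor, and both internode means lay under it. With means raised to the floor the rise at the base was at least 2.05 in wox4-1 and at least 0.14 in wild type. The fitted values were 2.81 in wox4-1 and 0.74 in wild type, and their difference of 2.07 (SE 0.23, adjusted p 0.00912) was not called without first internode replicate 2 of wox4-1 (adjusted p 0.0555) or replicate 3 (0.0507).

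Of the 5 named genes with the smallest interaction p, 3 had a larger fitted rise at the base in wox4-1 than in wild type, although none passed the correction. AT1G62770, of the pectin methylesterase inhibitor family, read 7.55, 7.67 and 7.12 at the wox4-1 base and 5.85, 6.05 and 5.93 in the wox4-1 internode, against 6.79, 6.81 and 6.74 at the wild-type base and 6.56, 6.58 and 6.39 in the wild-type internode. The position effect was 1.50 in wox4-1 and 0.27 in wild type (difference 1.23, SE 0.17, adjusted p 0.07). AT5G45670, a GDSL lipase, had an interaction p of the same size (adjusted p 0.07), but only its wox4-1 base lay over the floor, with a mean of 4.80 and a rise of at least 0.80 on the log2 scale. Both wild-type means, at the base and in the internode, lay under the floor, so no wild-type effect is given. AT1G12845 rose by 0.96 in wox4-1 and read lower by 0.19 at the wild-type base (adjusted p 0.07).

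The other 2 genes went the other way. AT1G60590, the pectin lyase-like gene, had fitted position effects of 3.96 in wox4-1 and 5.12 in wild type (difference -1.16, SE 0.17, adjusted p 0.07), with base arrays of 7.44, 7.72 and 7.61 in wox4-1 and 8.75, 8.61 and 8.75 in wild type over internode arrays at the floor. BGLU33, of the beta-glucosidase family, read 8.35, 8.73 and 8.70 at the wox4-1 base and 8.75, 8.82 and 8.72 in the wox4-1 internode, against 9.45, 9.41 and 9.52 at the wild-type base and 8.70, 8.56 and 8.94 in the wild-type internode. Its difference between position effects was -0.90 (SE 0.16, adjusted p 0.169). AT1G62770, AT1G12845 and AT1G60590 passed the correction in 5, 4 and 4 of 20 alternative fits, AT5G45670 in 3 of 19 and BGLU33 in 0 of 20.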

How the data were processed

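The authors deposited log2 expression values per probe set of ATH1 arrays, made with RMA per the submitters' processing notes. RMA brings all arrays to a like distribution, so a shift shared by most transcripts may not show in full. The deposited values were not exactly equal in distribution, with array medians between 5.56 and 5.71. Its version is not given in the sources used here. The 22810 probe sets were used without further scaling, less 64 controls. Of the 22746 tested, 13513 have 1 gene name, 503 several and 8730 none in the supplied platform annotation, and 13436 matched the RefSeq gene table.

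All 12 arrays entered a linear model in limma 3.58.1 (R 4.3.3) with a mean for each of the 4 groups, eBayes without trend or robust options and Benjamini-Hochberg adjustment over 22746 probe sets, called at adjusted p under 0.05. SE is limma's moderated value. P-values measure the spread between the 3 pools per group. The number of arrays limits the precision. Simulated data of this layout held 100 shifts of log2 1 and 100 of log2 0.5 among 22746 probe sets. Of these, 95% and 56% were recovered. No other probe set was shifted, whereas 24.5% were called in the data. The simulated rates therefore do not give the sensitivity of the reported comparison.

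Same-numbered base and internode arrays deviated together in wild type (r 0.294, 0.592 and 0.308 across probe sets). In wox4-1 they did so weakly or not at all (0.136, 0.240 and -0.050). The labels state no pairing, and replicate number was a block only in an alternative. Gene lists took 1 probe set per gene, the brightest. They were described by counts and medians without a test, and 9 genes whose symbol means another gene were removed. The members and lists were chosen with earlier results of these data known. Named genes are the 15 largest called, non-overlapping changes per direction, the 10 largest with both means at 7 or higher, the 5 brightest called, up to 4 called members per list (or the 2 smallest p) and the 5 smallest interaction p. A few others (UGT78D and CYP71B members, HTB1, KEU, OPS, SHN3, SWEET8, some photosynthesis genes, psaB, rpoC2) were named after their values were seen. Calls lost in alternative fits are stated for some single genes only, so silence on a gene does not mean that its call held.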

Additional observations from a re-analysis of the deposited data

Results flagged for a closer look

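The probe set 250891_at, which has no gene name here, differed between the genotypes in its position effect. The fitted base minus first internode difference was 2.81 in wox4-1 and 0.74 in wild type on the log2 scale, and these differed by 2.07 in limma's interaction contrast (adjusted p 0.00912). The internode means, 3.24 in wox4-1 and 3.40 in wild type, lay under the floor of 4. With them raised to the floor the differences were at least 2.05 in wox4-1 and at least 0.14 in wild type. The call held in 17 of 20 alternative fits, with adjusted p between 8.51e-05 and 0.103. It was lost without wox4-1 first internode replicate 2 (0.0555), without replicate 3 (0.0507) and without both wox4-1 base replicate 1 and first internode replicate 2 (0.103). Groups of 3 arrays are too small for a test of single outlying arrays.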

How the results depend on the processing

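The wox4-1 position comparison, with 5564 calls, gave 4275 from the 6 wox4-1 arrays alone, 6083 with the replicate block, 5523 with an eBayes trend, 5593 with the robust option, 5420 with array weights, 5139 with dim probe sets left out, and 1519 when a change over 1.2-fold was required (treat). Leaving out 1 array gave 4163 to 5650 calls, and the calls shared with the reported fit kept their sign. The wild-type comparison gave 4485 as reported, 4891 with the replicate block, 5665 with array weights, 1218 with treat and 3122 to 3668 without 1 array. With array weights wox4-1 thus had fewer calls than wild type, the reverse of the reported order. The interaction, with 1 call, gave 5 with the replicate block, 5 with the robust option, 5 with array weights, 7 with median centring, and 0 to 3 without 1 array. Without both wox4-1 base replicate 1 and first internode replicate 2 it gave 1, which was not 250891_at. The 0 calls came without wox4-1 first internode replicate 2 or 3. Same-numbered wox4-1 arrays deviated together weakly or not at all, and the labels state no pairing. In this balanced layout the block leaves each fitted difference as it is and alters only its error. Of the 63 called genes chosen for size, level or interaction, 56 were called in all 15 alternatives of the wox4-1 comparison, and AT3G45160, AT5G20290, BCAT4, LHCB4.1, UBC28, atpE and ndhI were not; none reversed. Calls in the gene lists moved by more than 1.5 times in 194 of 1040 combinations of 65 lists and 16 settings, the last of which counted every probe set of a gene. Values near the floor of 4 limit folds to bounds, 3 arrays per position limit small changes, and 8730 unnamed probe sets leave groups incomplete.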
